A study of Mus musculus with 9 samples.

Results

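Galectins are small proteins that bind galactose-containing sugars on glycoproteins and glycolipids. The family followed here is Lgals9, Lgals8, Lgals3 and Lgals1, which encode galectins 9, 8, 3 and 1, together with Lgals3bp, which encodes a secreted glycoprotein that galectins bind. These 5 genes were taken by name from 55401 genes counted, and all 5 were among the 15659 genes with enough reads to test. The libraries came from NP53, a mouse cell line of diffuse midline glioma (DMG, also called DIPG), a brain stem tumour. G1C7 and G2C9 are derivatives of NP53 labelled TIM-3 knockout, and Gcontrol is NP53 labelled wild type. Each group had 3 libraries of polyadenylated RNA, and all were of a line kept in DMEM with fetal bovine serum, with no other agent named. The labels state neither the edit, nor whether each derivative is 1 clone, nor whether the 3 libraries of a group are of separate cultures. The p-values therefore rest on the spread between libraries, which may be technical.

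TIM-3, the product of Havcr2, is best known as an inhibitory receptor on T cells, and galectin 9 is one of its ligands. Galectin 9 carries a pair of sugar-binding domains joined by a linker and is known to be induced by interferon gamma. Galectin 8 has the same layout and is known to bind sugars exposed inside cells when endosomes or lysosomes break, which marks them for autophagy. Galectin 3 has 1 sugar-binding domain and forms oligomers, galectin 1 forms dimers, and both are known to be abundant in glioma cells. Lgals3bp is known as a gene that interferons induce.

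In outline, Lgals8 fell in both derivatives, by 1.72-fold in G1C7 and 2.13-fold in G2C9. Lgals9 was lower in every derivative library than in any Gcontrol library, but within each derivative 1 library stood well above the other two, and edgeR, the main test, called it for the mean of both derivatives and not for either one. Lgals3bp was also lower in 5 of 6 derivative libraries, while Lgals3 and Lgals1, the abundant members, differed by little.

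The stretch of DNA before the gene start is shown for the 3 members that were lower, since across the derivative libraries Lgals9 and Lgals3bp were nearest to Gcontrol where a list of interferon genes was. Each is the 250 bases before the RefSeq start on GRCm38.p6, written 5′ to 3′ on the gene's own strand, which is the minus strand for all 3. Lgals9 lies at chr11:78984925-78985174, Lgals3bp at chr11:118401960-118402209 and Lgals8 at chr13:12461739-12461988. Capitals mark a match to the interferon-stimulated response element (ISRE), searched as GAAA, any 2 bases and GAAA again, or, in Lgals3bp, to a shorter interferon regulatory factor (IRF) motif, searched as AANNGAAA. Both were searched on both strands.
Lgals9: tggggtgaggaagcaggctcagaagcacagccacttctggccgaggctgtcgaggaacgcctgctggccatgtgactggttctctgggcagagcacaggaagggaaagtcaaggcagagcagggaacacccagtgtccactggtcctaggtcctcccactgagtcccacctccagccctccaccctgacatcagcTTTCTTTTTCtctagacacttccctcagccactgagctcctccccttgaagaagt
Lgals3bp: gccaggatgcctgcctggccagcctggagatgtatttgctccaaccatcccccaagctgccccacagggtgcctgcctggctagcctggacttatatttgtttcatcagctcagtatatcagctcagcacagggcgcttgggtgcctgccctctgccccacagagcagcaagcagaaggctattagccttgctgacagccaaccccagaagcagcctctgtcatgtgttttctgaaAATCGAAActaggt
Lgals8: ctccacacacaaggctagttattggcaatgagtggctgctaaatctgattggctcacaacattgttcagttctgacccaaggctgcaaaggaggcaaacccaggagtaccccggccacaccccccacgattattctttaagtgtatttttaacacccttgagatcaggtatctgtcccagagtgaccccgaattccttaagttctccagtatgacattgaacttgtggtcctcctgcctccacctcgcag
The Lgals9 match, TTTCTTTTTC, read on the other strand, lay 55 to 46 bases before the start. An ISRE match was present in 2.98% of the 32851 RefSeq promoters of this length. The IRF motif of Lgals3bp lay 14 to 7 bases before the RefSeq start, which is within the span of the counted gene and after its outermost start. Lgals9 held a pair of IRF motifs, one of them inside its ISRE match. The IRF motif was present in 21.3% of promoters, and it was added after the sequences were seen. Lgals8 and Lgals3 (chr14:47373610-47373859) held neither motif in this window. For Lgals9, Lgals3bp, Lgals8 and Lgals3 alike, the RefSeq start lies within the span of the counted gene, after its outermost start. The windows of Lgals9 and Lgals3bp reach past that outermost start (chr11:78984946 and chr11:118402092), so only part of each lies before it. DNA before the outermost start of Lgals8 (chr13:12464944) and of Lgals3 (chr14:47367751) was not searched. No promoter of Lgals1 was matched.

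Total reads in genes ranged over 50110129 to 56035382 per library. One library of each derivative stood apart from the other two of its group, G1C7 replicate 2 and G2C9 replicate 3. Hp, an acute-phase gene that marks them, was at 205 and 493 CPM there (reads scaled to library size with TMM factors), against means of 4.07 and 20.9 CPM in the other two libraries of each. Markers of the glial and glioma lineage were mixed: Vim, Nes, Pdgfra and Sox2 had reads in every library, while Olig1, Olig2 and Aqp4 were at 0 in all 9. Sox10 had 0 to 2 reads. Cspg4, another marker of that lineage, had 82, 50 and 80 reads in G1C7, 202, 166 and 277 in G2C9, and 2410, 2080 and 2705 in Gcontrol. It was called lower in both derivatives by the test described next. Of 15 macrophage and microglia markers, C1qa, C1qb, Tyrobp and Adgre1 were at 0 in all 9 libraries as well, and Ptprc had 0 to 4 reads. Others of the 15 had reads, and their summed level is given with the interferon list below. Havcr2 itself had 55, 6 and 66 reads in G1C7, 39, 30 and 28 in G2C9, and 74, 58 and 60 in Gcontrol, and passed the test in neither derivative, with adjusted p-values of 0.586 and 0.448. In G2C9 it was called lower in 2 of 17 alternative fits, without G1C7 replicate 2 (adjusted p = 0.0323) and without that library and G2C9 replicate 3 (adjusted p = 0.0293). Gene counts do not show an edited sequence.

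Genes were compared by edgeR's quasi-likelihood test on all 9 libraries, with p-values adjusted over all tested genes after Benjamini and Hochberg, and an adjusted p under 0.05 counted as a call. That rule called 17.5% of tested genes in G1C7 and 13.5% in G2C9 against Gcontrol, 20.0% for the mean of both derivatives, and 3.36% between the derivatives. Both derivatives were set against the same Gcontrol libraries, so their comparisons share those values. With G1C7 replicate 2 and G2C9 replicate 3 left out, the same rule called 54.3% and 53.0% of genes against Gcontrol, and calls made that way are to be read against those shares.

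Lgals9 (ENSMUSG00000001123.15, chromosome 11, 78962974 to 78984946, GRCm38, minus strand) had 249, 625 and 294 reads in G1C7, 120, 140 and 496 in G2C9, and 961, 929 and 1021 in Gcontrol. On the CPM scale this was 4.66, 11.4 and 5.37 in G1C7, 2.38, 2.86 and 9.69 in G2C9, and 17.8, 17.2 and 18.01 in Gcontrol. The derivatives did not overlap with Gcontrol, which held for 14.8% of tested genes in the lower direction, but the highest library of each derivative was the one with high Hp. Those libraries were at 64.5% of the Gcontrol mean in G1C7 and 54.9% in G2C9, while the others were at 26.4% to 30.4% in G1C7 and at 13.5% to 16.2% in G2C9.

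By edgeR, the log2 fold change of Lgals9 was -1.31 ± 0.54 (SE, adjusted p = 0.135) in G1C7 and -1.83 ± 0.55 (adjusted p = 0.0604) in G2C9, neither of them called. Taking both derivatives as a mean, Lgals9 fell 2.96-fold, a log2 fold change of -1.57 ± 0.44 (edgeR adjusted p = 0.0380). That call was lost in 9 of 16 alternative fits, among them 7 of the 9 fits that left out 1 library, whose adjusted p-values ran from 0.00248 to 0.121. DESeq2 (adjusted p = 0.0460 and 0.00362) and limma-voom (adjusted p = 0.0432 and 0.0162) called Lgals9 in G1C7 and in G2C9. Without G1C7 replicate 2 and G2C9 replicate 3 together, the log2 fold changes were -1.81 ± 0.10 (adjusted p = 5.13e-11) and -2.75 ± 0.11 (adjusted p = 1.03e-12).

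Between the derivatives, Lgals9 differed by 0.52 ± 0.54 on the log2 scale, G1C7 over G2C9 (edgeR adjusted p = 0.765), and the interval of the difference ran from -0.70 to 1.74. Without the 2 libraries that stood apart, G1C7 was above G2C9 by 0.94 ± 0.13 (adjusted p = 2.22e-05), in a fit that called 27.3% of genes between the derivatives.

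**Figure D1:**
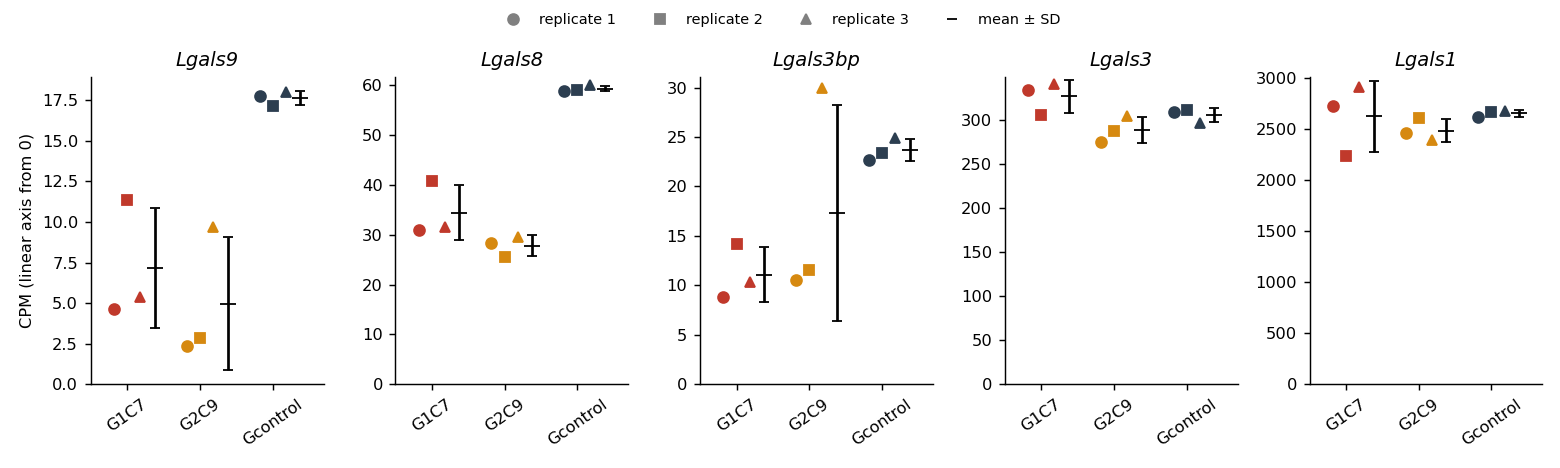
CPM of the 5 members (one panel each, linear axes from 0) in the 3 libraries of G1C7, G2C9 and Gcontrol, with symbols for the replicate and a bar for the mean ± SD (n = 3). Lgals8 and Lgals9 of every derivative library sit below all Gcontrol libraries, and for Lgals9 the square of G1C7 (11.4 CPM) and the triangle of G2C9 (9.69 CPM) stand above the rest of their group.

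Lgals3bp (ENSMUSG00000033880.11, chromosome 11, 118392751 to 118402092, minus strand) had 472, 777 and 564 reads in G1C7, 532, 568 and 1532 in G2C9, and 1229, 1268 and 1410 in Gcontrol. All G1C7 libraries and the first 2 of G2C9 were below Gcontrol, but G2C9 replicate 3 was at 126% of the Gcontrol mean. The log2 fold change was -1.09 ± 0.38 (edgeR adjusted p = 0.0824) in G1C7 and -0.45 ± 0.37 (adjusted p = 0.499) in G2C9. Without the 2 libraries that stood apart it was -1.30 ± 0.09 (adjusted p = 5.72e-10) and -1.10 ± 0.08 (adjusted p = 6.36e-09). Left out alone, G2C9 replicate 3 moved the value in G2C9 to -1.09 (adjusted p = 0.0105) and the adjusted p in G1C7 to 0.00436.

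Lgals8 (ENSMUSG00000057554.13, chromosome 13, 12439415 to 12464944, minus strand) had 1652, 2235 and 1724 reads in G1C7, 1428, 1252 and 1515 in G2C9, and 3181, 3196 and 3396 in Gcontrol. The libraries that stood apart were the highest of their groups here too, at 40.7 CPM in G1C7 and 29.6 CPM in G2C9, but by a smaller factor than for Lgals9: 1.30 and 1.10 times the mean of the other two, against 2.27 and 3.70 times for Lgals9. Lgals8 fell 1.72-fold in G1C7, a log2 fold change of -0.79 ± 0.12 with a 95% interval of -1.06 to -0.52 (edgeR adjusted p = 0.00321). In G2C9 it fell 2.13-fold, a log2 fold change of -1.09 ± 0.12 with an interval of -1.36 to -0.82 (adjusted p = 9.25e-04). Lower calls were 8.73% of tested genes in G1C7 and 7.22% in G2C9. Lgals8 was called in 17 of 17 alternative fits in each comparison, the largest adjusted p being 0.0195 in G1C7 and 0.00976 in G2C9. The derivatives differed by 0.31 ± 0.12 (adjusted p = 0.260), and the interval of that difference ran from 0.04 to 0.57. Of its 3688 exon bases, 155 are shared with Heatr1, and reads there were not counted for either gene.

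Lgals3 (ENSMUSG00000050335.17, chromosome 14, 47367751 to 47386160, plus strand) was at 334, 305 and 340 CPM in G1C7, 275, 287 and 304 CPM in G2C9, and 308, 311 and 296 CPM in Gcontrol. Each derivative overlapped with Gcontrol. The log2 fold change was 0.10 with an interval of -0.09 to 0.28 (edgeR adjusted p = 0.468) in G1C7, and -0.08 with an interval of -0.27 to 0.10 (adjusted p = 0.582) in G2C9. All 3 G1C7 libraries were above all 3 G2C9 libraries, as were 9.74% of tested genes (18.2% did not overlap in either direction), with a difference of 0.18 ± 0.08 (adjusted p = 0.357).

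Lgals1 (ENSMUSG00000068220.6, chromosome 15, 78926725 to 78930465, plus strand) was at 2731, 2238 and 2916 CPM in G1C7, 2462, 2608 and 2391 CPM in G2C9, and 2618, 2667 and 2681 CPM in Gcontrol. G1C7 replicate 2 was the lowest of the 9 libraries, whereas for Lgals9 it was the highest of the derivative libraries. The log2 fold change was -0.01 with an interval of -0.27 to 0.24 (edgeR adjusted p = 0.942) in G1C7, where it was 0.09 without the 2 libraries that stood apart, and -0.09 with an interval of -0.35 to 0.16 (adjusted p = 0.646) in G2C9.

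**Figure D2:**
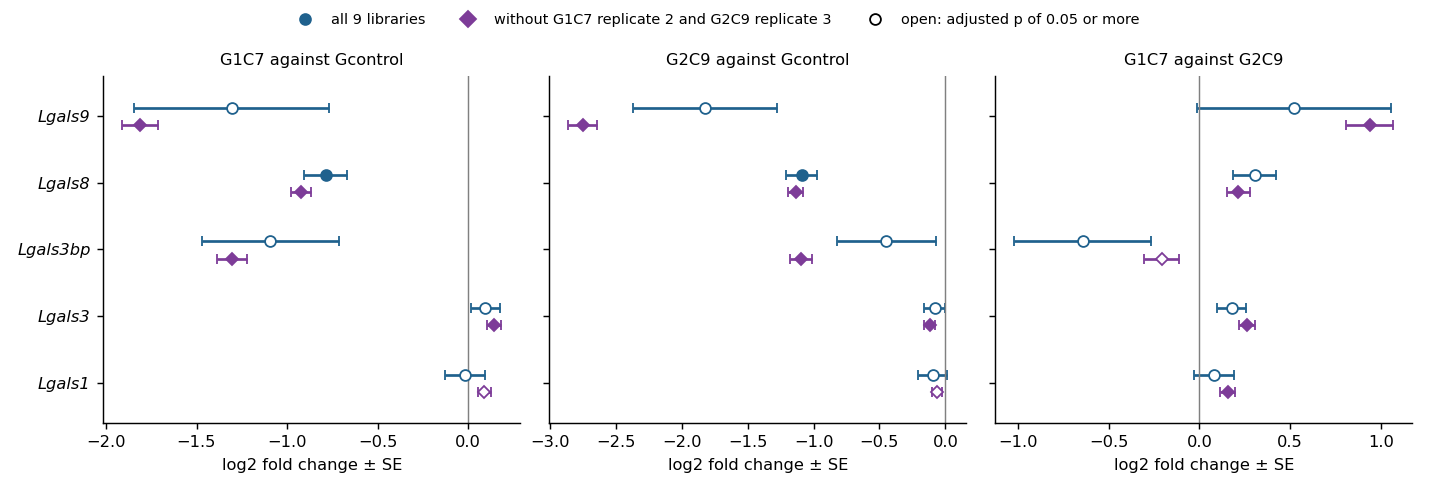
Log2 fold change ± SE of each member in 3 comparisons (one panel each), from all 9 libraries (blue circles) and without G1C7 replicate 2 and G2C9 replicate 3 (purple diamonds); filled symbols are called at adjusted p under 0.05. With all libraries the filled symbols are those of Lgals8, at -0.79 and -1.09, and the bars of Lgals9 and Lgals3bp shorten when the 2 libraries are left out.

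The members were set side by side per length, in TPM (reads over exon length, scaled to the library). By group mean the order was the same in all 3 groups: Lgals1, Lgals3, Lgals8, Lgals3bp, Lgals9. Lgals1 averaged 10095 ± 1091 TPM in G1C7, 9610 ± 399 TPM in G2C9 and 10392 ± 157 TPM in Gcontrol (SD, n = 3 each). It made up 92.8% to 94.4% of the summed TPM of the galectins in every library. Lgals3 followed with 610 ± 20.0, 542 ± 27.2 and 581 ± 11.5 TPM in G1C7, G2C9 and Gcontrol, and Lgals8 with 32.5 ± 6.06, 26.3 ± 2.02 and 56.8 ± 0.92 TPM. Lgals3bp and Lgals9 were neighbours that did not differ beyond their spread in Gcontrol, at 29.4 ± 1.51 and 29.2 ± 0.95 TPM. The same held in G1C7, at 13.6 ± 3.70 and 11.7 ± 6.38 TPM, where Lgals9 was the higher in replicate 2 (19.0 against 17.8 TPM). In G2C9 Lgals3bp was above Lgals9 within every library, at 12.97, 14.2 and 36.7 TPM for Lgals3bp and 3.90, 4.65 and 15.8 TPM for Lgals9. Lgals8 and Lgals3bp did not differ beyond their spread in G2C9, and in replicate 3 Lgals8, at 28.0 TPM, was below Lgals3bp. Lgals9 was 0.0677%, 0.199% and 0.0733% of the summed galectin TPM in the G1C7 libraries, 0.0385%, 0.0437% and 0.160% in G2C9, and 0.268%, 0.255% and 0.267% in Gcontrol. In bulk RNA, fewer cells that express a gene and less of its RNA per cell cannot be told apart.

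Of 12 galectins and galectin-related genes listed, 11 had an ID and 9 were tested. Their median log2 fold change was -0.30 in G1C7 and -0.45 in G2C9, beside 0.02 and 0.01 over all genes tested. By edgeR, Lgals8 was called in G1C7, and Lgals8 and Lgals7 in G2C9, all lower, where 8.73% and 7.22% of all tested genes were. DESeq2 called 3 lower in each derivative, and limma-voom 2 in G1C7 and 3 in G2C9. The shares of all tested genes called lower by these tools are not given here, so their counts stand without a background. Without the 2 libraries that stood apart, edgeR called 4 lower and 1 higher in G1C7 and 6 lower in G2C9. In those fits 27.9% and 27.6% of all genes were called lower. Lgals7, known as an epithelial galectin, had 18, 16 and 27 reads in G1C7, 6, 2 and 6 in G2C9, and 30, 24 and 22 in Gcontrol. It fell by 2.29 ± 0.45 on the log2 scale in G2C9 (edgeR adjusted p = 0.0121, which became 0.0621 without Gcontrol replicate 1), while in G1C7 the value was -0.30 (adjusted p = 0.650). The difference between the derivatives was 1.99 ± 0.46 (adjusted p = 0.0541). These are few reads, and since mates were counted singly the number of fragments is smaller still.

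Lgalsl, a galectin-related protein that lacks sugar binding, averaged 30.5, 38.1 and 30.1 CPM in G1C7, G2C9 and Gcontrol and was not called (adjusted p = 0.967 and 0.460). It was highest in the libraries that stood apart, at 44.7 CPM in G1C7 and 47.5 CPM in G2C9, and its log2 fold change of 0.02 in G1C7 was -0.36 without them (adjusted p = 3.82e-04). Lgals2 had 12 to 21 reads in the derivative libraries and 24 to 30 in Gcontrol, and Lgals4 had 6 to 54 and 19 to 31. Neither was called, with adjusted p-values of 0.197 and 0.235 for Lgals2 and 0.863 and 0.767 for Lgals4. Lgals12 and Grifin had 2 reads each, in 1 library each.

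**Figure D3:**
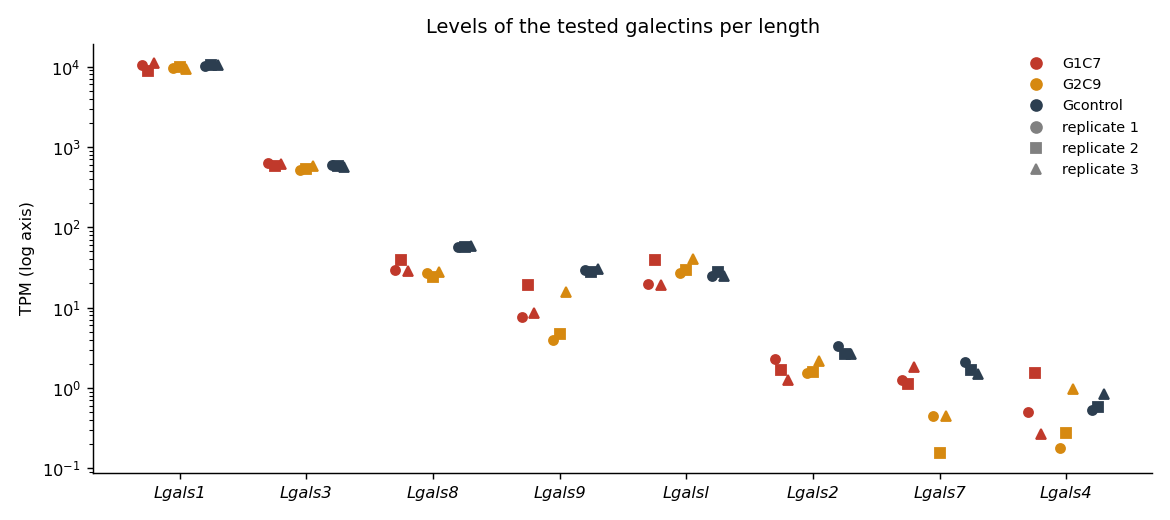
TPM (log axis) of the 8 tested galectins in each library, coloured by group (G1C7, G2C9, Gcontrol from left to right within a gene) with symbols for the replicate. Lgals1 lies near 10392 TPM, the Gcontrol mean, in all groups, Lgals8 and Lgals9 of the derivatives lie below Gcontrol, and Lgals2, Lgals7 and Lgals4 are at the bottom of the range.

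The TIM list held TIM-3, its relatives and its partners. Of 8 listed genes, Lgals9 among them, 6 were tested and 0 were called by edgeR in either derivative. At an unadjusted p under 0.05, 2 were lower (Lgals9 and Timd2) and 2 higher (Bag6 and Ceacam1) in G1C7, and 2 were lower (Lgals9 and Timd2) in G2C9. DESeq2 called 2 lower and 2 higher in G1C7 and 1 lower in G2C9, and limma-voom called 2 lower in G1C7 and 1 lower in G2C9. The shares of all tested genes by these tools, or at the unadjusted cut, are not given here, so these counts stand without a background. Ceacam1, a cell surface ligand of TIM-3, had 49, 2 and 40 reads in G1C7, 18, 6 and 11 in G2C9, and 3, 6 and 0 in Gcontrol. G1C7 replicate 2 was low beside the other two. The log2 fold change was 3.30 ± 1.14 (adjusted p = 0.0824) in G1C7 and 2.03 ± 1.18 (adjusted p = 0.314) in G2C9. Hmgb1 and Bag6, which encode other proteins known to bind TIM-3, averaged 558 and 433 CPM in G1C7, 577 and 367 CPM in G2C9, and 519 and 357 CPM in Gcontrol. Timd2 had 14, 14 and 57 reads in G1C7, G2C9 and Gcontrol, Havcr1 had 14, 18 and 36, and Timd4 had 2, 0 and 8.

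Interferon signalling and induced genes were followed as a list of 38, of which 36 were tested. In G1C7, 7 fell and 1 rose, with a median log2 fold change of -0.69. In G2C9, 10 fell and 1 rose, with a median of -0.97. Over all tested genes, 8.73% fell and 8.77% rose in G1C7, and 7.22% fell and 6.25% rose in G2C9, with medians of 0.02 and 0.01. Without G1C7 replicate 2 and G2C9 replicate 3, 27 of 35 tested were called lower in each derivative, where 27.9% and 27.6% of all genes were, and the medians were -1.26 and -1.38. Genes called lower in both included Ddx58, a sensor of viral RNA, Gbp2 and Gbp3, which encode guanylate-binding proteins, Oasl2, which encodes an oligoadenylate synthetase-like protein, and Xaf1. Oasl2 had 4, 24 and 4 reads in G1C7, 2, 2 and 47 in G2C9, and 244, 265 and 277 in Gcontrol. Its log2 fold change was -4.59 (edgeR adjusted p = 0.0246) in G1C7 and -3.82 (adjusted p = 0.0477) in G2C9, and a library left out raised the adjusted p to as much as 0.0745 and 0.128. Oasl1, a relative of it, had 0, 4 and 0 reads in G1C7, 8, 4 and 67 in G2C9, and 142, 154 and 169 in Gcontrol. It was called in G1C7 (adjusted p = 0.00901) and not in G2C9 (adjusted p = 0.125). Psmb9, an immunoproteasome subunit, had 0, 20 and 2 reads in G1C7, 2, 0 and 2 in G2C9, and 41, 60 and 37 in Gcontrol, and was called in G2C9 (adjusted p = 0.0309). That call held in 9 of 16 alternative fits, and leaving out G2C9 replicate 2 gave an adjusted p of 0.104. Ifngr1, a chain of the interferon gamma receptor, rose by 0.43 ± 0.08 in G1C7 (adjusted p = 0.0101), and Ifit2, an interferon-induced gene, rose by 0.60 ± 0.15 in G2C9 (adjusted p = 0.0332). The Ifit2 call held in 11 of 17 fits, and leaving out Gcontrol replicate 3 gave an adjusted p of 0.132.

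By library, the median log2 ratio of the interferon list to the Gcontrol mean was -1.22, -0.23 and -1.15 in G1C7, and -1.11, -1.23 and -0.20 in G2C9. The libraries nearest to Gcontrol were again G1C7 replicate 2 and G2C9 replicate 3, as for Lgals9 and Lgals3bp. The acute-phase and inflammatory list gave medians of -0.91, 0.72 and -0.96 in G1C7 and of -0.21, -0.23 and 0.89 in G2C9. The summed level of the 15 macrophage and microglia markers was 31.8 to 68.3 CPM in G1C7, 50.3 to 136 CPM in G2C9 and 50.1 to 51.3 CPM in Gcontrol. It was highest in the same 2 libraries. In each library 5 to 7 of the 15 were at 0, among them the 4 given above as at 0 throughout. Of the 6 tested, edgeR called Csf1r lower in G1C7 and Cd14 higher in G2C9. The part of these lists in the levels of Lgals9 and Lgals3bp was not tested.

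**Figure D4:**
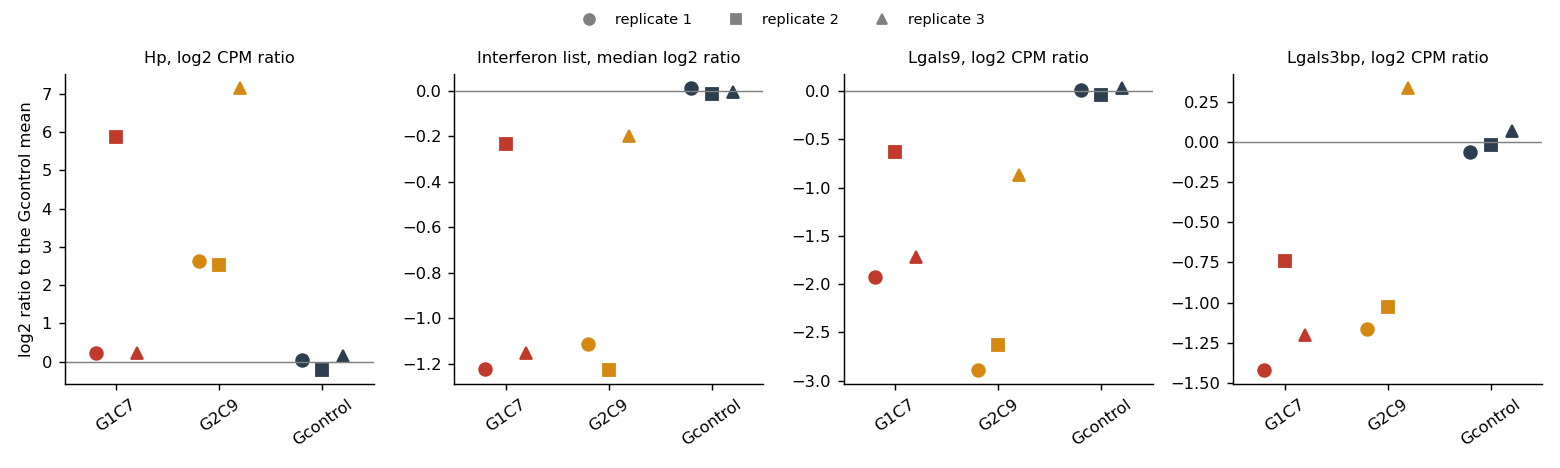
Log2 ratio to the Gcontrol mean, by library, for Hp, the median of the interferon list, Lgals9 and Lgals3bp (panels have their own axes; symbols mark the replicate). G1C7 replicate 2 and G2C9 replicate 3 are highest within their groups in all 4 panels, with interferon medians of -0.23 and -0.20 beside -1.11 to -1.23 in the other derivative libraries.

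Over the 9 libraries, Pearson's r of log2 CPM was 0.90 between Lgals9 and Lgals8, 0.80 between Lgals9 and Lgals3bp, and 0.63 between Lgals8 and Lgals3bp. For Lgals9 it was 0.23 with Lgals3 and -0.06 with Lgals1. These values describe libraries that fall into groups and share the 2 libraries that stood apart. By the same measure among protein coding genes, the genes most like Lgals9 included Dact2 and Serpinf1 (r of 0.99 to 1.00). Serpinf1 encodes a secreted inhibitor of blood vessel growth and averaged 66.2 CPM in G1C7, 40.4 CPM in G2C9 and 147 CPM in Gcontrol. It was called in neither derivative (edgeR adjusted p = 0.194 and 0.0622), and it lies within 5 Mb of Lgals9 on chromosome 11. Those most like Lgals8 were Fam83h, Pcdhgb1 and Adra1d (r of 0.99 to 1.00), and those most like Lgals3bp were Gramd3, Sec61b and Eif2b2 (r of 0.98). Nek8, Fbxo28 and Rae1 were most like Lgals3 (r of 0.93 to 0.95), and Sertad1, Ercc4 and Ubl4a most like Lgals1 (r of 0.96 to 0.97). Without the 2 libraries that stood apart, 0 of the 3 genes most alike to each member were again among its 3 most alike.

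Genes around the members were shifted as well. Within 5 Mb on each side of Lgals8, 35 other genes were tested, with median log2 fold changes of -0.46 in G1C7 and -0.51 in G2C9, and 10 and 6 of them were below Lgals8. Mtr, which encodes methionine synthase and is the nearest tested neighbour at lower coordinates, fell by 0.63 ± 0.17 in G1C7 (edgeR adjusted p = 0.0332) and by 0.63 ± 0.17 in G2C9 (adjusted p = 0.0379). These calls held in 11 and 8 of 17 alternative fits, with adjusted p-values of up to 0.117 (without Gcontrol replicate 1) and 0.134 (without Gcontrol replicate 3). The overlapping Heatr1 had -0.76 ± 0.41 (adjusted p = 0.245) and -0.58 ± 0.41 (adjusted p = 0.413). The part of this regional shift in the fall of Lgals8 was not tested.

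Around Lgals9, 148 genes had medians of -0.26 in G1C7 and -0.35 in G2C9, and 11 and 7 of them were below Lgals9. Its neighbour Nos2, the inducible nitric oxide synthase, was at 6.77, 88.5 and 6.96 CPM in G1C7, 18.6, 17.7 and 147 CPM in G2C9, and 83.0, 80.0 and 84.7 CPM in Gcontrol. Nos2 thus had its highest values in the 2 libraries that stood apart, which were above Gcontrol, where those of Lgals9 stayed below. On the other side, Ksr1 had log2 fold changes of -0.32 (adjusted p = 0.354) and -0.38 (adjusted p = 0.292). Around Lgals3bp, 173 genes had medians of -0.26 and -0.34, and its neighbour Timp2, an inhibitor of metalloproteinases, fell by 0.40 ± 0.08 in G1C7 (adjusted p = 0.0128) and by 0.42 ± 0.08 in G2C9 (adjusted p = 0.0128), calls that held in 13 and 11 of 17 alternative fits. Havcr2 lies on chromosome 11 as do Lgals9 and Lgals3bp, and 61 genes around Havcr2 had medians of -0.15 in G1C7 and -0.37 in G2C9. The medians were -0.19 and -0.21 over 205 genes around Lgals1, and 0.11 and 0.14 over 72 genes around Lgals3.

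**Figure D5:**
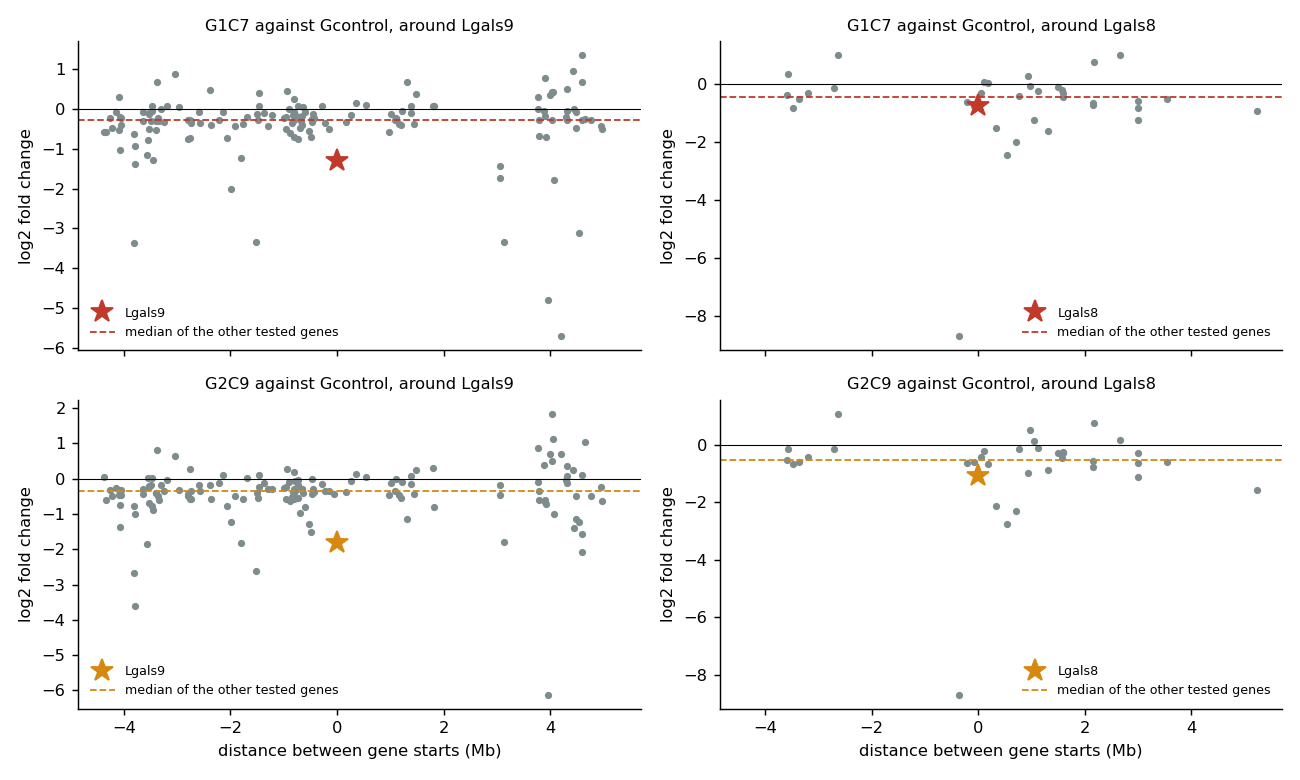
Log2 fold change of tested genes (grey) within 5 Mb of Lgals9 (left) and Lgals8 (right), against distance between gene starts, for G1C7 (top) and G2C9 (bottom) against Gcontrol; stars mark the member and dashed lines the median of the other genes. The medians lie below 0 in all 4 panels, at -0.26 and -0.35 around Lgals9 and at -0.46 and -0.51 around Lgals8.

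Galectins bind sugars that are built in the Golgi, and the genes of N-glycan branching and galactose addition were followed as a list of 22, of which 19 were tested. In G1C7, 3 rose and 1 fell, and in G2C9, 3 rose and 2 fell, with medians of 0.08 and -0.06. Higher calls were 8.77% of tested genes in G1C7 and 6.25% in G2C9, and lower calls were 8.73% and 7.22%. Man2a2, an alpha-mannosidase that trims mannose before branches are added, was at 95.7, 120 and 93.1 CPM in G1C7, 85.2, 81.0 and 105 CPM in G2C9, and 44.0, 39.3 and 48.0 CPM in Gcontrol. It rose 2.36-fold in G1C7 and 2.06-fold in G2C9 (edgeR adjusted p = 0.00104 and 0.00241). Its relative Man2a1 was at 388, 310 and 372 CPM in G1C7, 244, 230 and 183 CPM in G2C9, and 178, 179 and 178 CPM in Gcontrol. Man2a1 rose 2.00-fold in G1C7 (adjusted p = 0.00158), with a value of 0.30 on the log2 scale in G2C9 (adjusted p = 0.169).

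B4galt4, a galactosyltransferase, had 7, 16 and 8 reads in G1C7, 24, 19 and 43 in G2C9, and 133, 125 and 126 in Gcontrol. It fell 12.1-fold in G1C7 and 4.09-fold in G2C9 (edgeR adjusted p = 9.72e-04 and 0.00890). B4galt6, known for making the glycolipid lactosylceramide, rose by 0.46 ± 0.09 in G1C7 (adjusted p = 0.0121) and by 0.39 ± 0.09 in G2C9 (adjusted p = 0.0272). The 28 tested genes within 5 Mb of B4galt6 had medians of 0.22 and 0.25, and the 7 within 2 Mb had 0.53 and 0.40. Mgat4b, which adds a branch to N-glycans, fell by 0.37 ± 0.10 in G2C9 (adjusted p = 0.0394) and had a value of 0.20 in G1C7 (adjusted p = 0.200). Mgat4b lies on chromosome 11 too, and the 103 tested genes within 5 Mb of it had medians of -0.16 in G1C7 and -0.37 in G2C9. The third gene called higher in G2C9 was Man1a, which encodes another mannosidase of N-glycan trimming.

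Sialic acid can cap the galactose that galectins bind, and of 8 sialyltransferases 7 were tested. What their levels mean for galectin binding was not tested. In G1C7 1 was called higher and 1 lower, and in G2C9 2 higher, where 17.5% and 13.5% of all tested genes were called. The medians were -0.02 and 0.03. St3gal2 was at 366, 374 and 366 CPM in G1C7, 372, 364 and 373 CPM in G2C9, and 226, 221 and 246 CPM in Gcontrol. It rose by 0.67 ± 0.08 in G1C7 and by 0.68 ± 0.08 in G2C9 on the log2 scale (edgeR adjusted p = 8.99e-04 and 9.67e-04). The 92 tested genes within 5 Mb of St3gal2 had medians of 0.50 and 0.43 on the log2 scale. The 47 within 2 Mb had medians of 0.64 and 0.55, and 25 and 27 of them were below St3gal2. St3gal5, which makes the ganglioside GM3, fell by 0.53 ± 0.08 in G1C7 (adjusted p = 0.00357) and had a value of 0.08 in G2C9 (adjusted p = 0.577). St3gal1, which caps O-glycans, rose by 0.52 ± 0.12 in G2C9 (adjusted p = 0.0215), a call that held in 11 of 17 alternative fits and was lost, for example, without Gcontrol replicate 1 (adjusted p = 0.0999).

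Among 35 cell surface and matrix glycoproteins known to bind galectins, 33 were tested. In G1C7 1 rose, Cd63, and in G2C9 6 rose, with medians of 0.10 and 0.14. Over all tested genes, 8.77% and 6.25% were called higher. By edgeR 0 fell in either derivative, while 1 and 3 were lower at an unadjusted p under 0.05. DESeq2 called 1 and 2 lower, and limma-voom called 0 and 1. The shares of all tested genes at these other rules are not given here. Cd63, a tetraspanin of late endosomes, averaged 702, 725 and 463 CPM in G1C7, G2C9 and Gcontrol and rose 1.52-fold and 1.57-fold (edgeR adjusted p = 0.0161 and 0.0141). The 95 tested genes within 5 Mb of Cd63 had median log2 fold changes of 0.33 in G1C7 and 0.32 in G2C9. Cd9, another tetraspanin, averaged 326, 368 and 241 CPM and was called in G2C9 (adjusted p = 0.0297) and not in G1C7 (adjusted p = 0.0819). Vcan, the matrix proteoglycan versican, averaged 253, 423 and 236 CPM and was called in G2C9 (adjusted p = 0.0392) and not in G1C7 (adjusted p = 0.793). The genes near Vcan had medians of 0.57 and 0.58. The calls of Cd63 held in 14 of 17 alternative fits in each derivative, that of Cd9 in 13 and that of Vcan in 10, and leaving out Gcontrol replicate 2 gave an adjusted p of 0.148 for Vcan.

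For the handling of damaged endosomes and lysosomes, in which galectins 3, 8 and 9 are known to act, 18 of 19 listed genes were tested. In G1C7 1 rose and 1 fell, and in G2C9 2 rose and 1 fell, with medians of -0.02 and -0.06. Over all tested genes 17.5% were called in G1C7 and 13.5% in G2C9, so these counts do not set the list apart. Optn, an autophagy receptor, was at 6.85, 9.38 and 7.91 CPM in G1C7, 7.45, 8.12 and 10.6 CPM in G2C9, and 19.6, 18.3 and 19.2 CPM in Gcontrol. It fell 2.37-fold in G1C7 and 2.18-fold in G2C9 (edgeR adjusted p = 0.00198 and 0.00360). Tfeb, a transcription factor of lysosomal genes, rose 1.78-fold in G1C7 (adjusted p = 0.00801) and had a log2 value of 0.09 in G2C9 (adjusted p = 0.770). Genes within 5 Mb of Tfeb had medians of 0.42 and 0.06, and those near Man2a1 0.49 and 0.30. In G2C9 the autophagy genes Gabarapl2 and Tax1bp1 rose by 0.38 ± 0.09 and 0.34 ± 0.08 (adjusted p = 0.0198 and 0.0277). Genes within 5 Mb of them had medians of 0.30 and 0.31 there, and the calls held in 12 and 11 of 17 alternative fits. Man2a2, B4galt4, St3gal2 and Optn were called in 17 of 17 alternative fits in both comparisons. Man2a1, Tfeb and St3gal5 were called in 17 of 17 in G1C7, whereas B4galt6 was called in 13 and 9 of 17 and Mgat4b in 7 of 17 in G2C9.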

How the data were processed

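Per the submitters' processing notes, reads were checked with FastQC 0.11.8, aligned with STAR 2.6.1c to GRCm38 and counted per gene with featureCounts 1.6.0, and edgeR and limma are named. The deposited values are raw counts of reads per gene. Per the file headers, no options for pairs, strand, multi-mapping or overlapping features were set, so mates were counted singly, strand was ignored, and reads on bases shared by genes were dropped; this can lower Lgals8 and mixes sense with antisense reads. The authors' gene length column served TPM only. Of 55401 gene IDs, 55141 were matched to GENCODE vM21 names.

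From the counts, edgeR 4.0.16 (R 4.3.3; filterByExpr, TMM, robust quasi-likelihood fit) compared 15659 genes over 9 libraries, 3 per group, with 6 residual degrees of freedom and a biological coefficient of variation of 0.248. Interval limits are 95%. Alternatives were RLE factors, DESeq2 1.42.0, limma-voom (limma 3.58.1), other filters, fewer groups, a replicate block, and libraries left out. The fits were tested on simulated data, where DESeq2 made more false calls than edgeR and limma-voom in every comparison. Genes were drawn independently there, so libraries that stand apart over many genes at once were not simulated. Per-length levels and promoters (RefSeq, GRCm38.p6) were described only.

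The members, gene lists and tests were chosen with earlier results of these data known. Named genes were all galectins and TIM genes, up to 3 higher and 3 lower called genes per pathway list by size of change in either derivative, the 3 genes most alike in pattern and the nearest neighbours of each member, and Hp; Man1a and the interferon genes called in both derivatives were named after their values were seen. Some genes that these rules take in, and a motif searched, are not reported here.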

Additional observations from a re-analysis of the deposited data

Results flagged for a closer look

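Of the pathway lists, 6 genes differed between the derivatives themselves by edgeR's test of G1C7 against G2C9, which called 3.36% of all tested genes. The lists held 19 tested genes of glycan branching, 7 sialyltransferases, 33 bound glycoproteins, 18 genes of endomembrane damage and 36 interferon genes. Man2a1 was higher in G1C7 by 0.70 ± 0.13 on the log2 scale (adjusted p = 0.0216), and Mgat4b by 0.57 ± 0.10 (adjusted p = 0.0177). St3gal5 was lower in G1C7, at -0.62 ± 0.08 (adjusted p = 0.00594), and Tfeb was higher by 0.74 ± 0.15 (adjusted p = 0.0385). Gbp2 was lower in G1C7, at -1.06 ± 0.11 (adjusted p = 0.00211), and so was Pdpn, the mucin-like glycoprotein podoplanin, at -0.57 ± 0.11 (adjusted p = 0.0310). In all 6 the G1C7 and G2C9 libraries did not overlap, which held for 18.2% of tested genes. As these genes were picked for differing, that is not separate evidence. St3gal5 was called in 16 of 17 alternative fits, Man2a1 in 9, Mgat4b in 8 and Tfeb in 7. Mgat3, which adds a bisecting branch to N-glycans, was at 24.99, 33.1 and 26.3 CPM in G1C7, 14.2, 14.2 and 21.6 CPM in G2C9, and 22.0, 21.8 and 22.8 CPM in Gcontrol. Every G1C7 library was above Gcontrol and every G2C9 library below it, and the difference between the derivatives, 0.75 ± 0.18, did not pass the test (adjusted p = 0.0643). Pdpn lay on opposite sides of Gcontrol too, lower in G1C7 and higher in G2C9.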

How the results depend on the processing

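Counts of called genes moved most with libraries. The replicate block, which treats equal replicate numbers as a pair, called 1532, 1114, 1971 and 164 genes (G1C7, G2C9 and their mean against Gcontrol, and G1C7 against G2C9), against 2740, 2109, 3124 and 526 without it. Deviations of same-numbered libraries correlated from -0.56 to 0.41. The libraries that stood apart, which differ in number, correlated at 0.68 and weigh on every value between the derivatives. This range therefore does not settle whether equal numbers mark a shared batch. Without G1C7 replicate 2 and G2C9 replicate 3 the counts were 8581, 8383, 9252 and 4320. With 1 library left out they ran over 1181 to 4133, 878 to 4113, 1318 to 4986 and 186 to 1286. DESeq2 called 3190 genes in G2C9 and 1267 between the derivatives, and fits of only the 2 groups compared gave 3212 and 80.

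Log2 values of Lgals9 that changed side were, in G1C7, -1.32 (DESeq2), -1.42 (limma-voom) and -1.81 (both libraries out), with 1 library out -1.81 to -1.08. In G2C9 they were -1.83 (DESeq2), -2.12 (limma-voom), -1.82 (only 2 groups) and -2.75 (both out), with 1 out -2.75 to -1.50. For the mean they were -1.57 (no filter, adjusted p = 0.0848) and -1.68 (replicate block, adjusted p = 0.0569), with 1 out -2.03 to -1.40. Between the derivatives it was 0.94 with both out. Lgals3bp had -1.11 (DESeq2), -1.09 (only 2 groups) and -1.30 (both out) in G1C7, with 1 out -1.30 to -0.96. In G2C9 it had -1.10 with both out and -1.09 to -0.19 with 1 out, and for the mean -1.20 and -1.09 to -0.64.

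With both out, Lgals3 passed the test at 0.14 in G1C7, -0.12 in G2C9 and 0.26 between the derivatives, Lgals8 at 0.21 and Lgals1 at 0.16 between the derivatives. Lgals1 changed sign with both out, to 0.091 in G1C7 and 0.013 for the mean. With 1 out it ran from -0.099 to 0.093 in G1C7, -0.097 to 0.00021 for the mean and -0.0041 to 0.19 between the derivatives. The mean of Lgals3 was -8.2e-05 (RLE) and -7.3e-05 (DESeq2), and -0.016 to 0.033 with 1 out. In G1C7, values not called with all libraries that changed sign were those of Lgals4 (-0.092 by limma-voom, -0.72 with both out, -0.72 to 0.61 with 1 out), Lgalsl (-0.046 by limma-voom, -0.023 with the block, -0.36 and then called with both out, -0.36 to 0.17 with 1 out), St3gal1 (-0.057 with both out, -0.054 to 0.16 with 1 out), Vcan (-0.054 to 0.30 with 1 out) and Tax1bp1 (-0.0012 by RLE and by DESeq2, -0.018 with both out, -0.026 to 0.027 with 1 out), and in G2C9 that of Nos2 (-2.18 to 0.010 with 1 out). The cause was not tested. Of the other values of the members, 289 kept direction and side. By reads not divided by length, Lgals1 made up 86.7%, 87.3% and 86.5% of the galectins in G1C7, G2C9 and Gcontrol.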
